A study of Homo sapiens with 72 samples.

Results

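The genes described here are 8 mRNAs of the circuit that links eIF2 phosphorylation to the transcription factor ATF4. They were taken by symbol from the 44659 rows of the count table: ATF4 and ATF5, the phosphatase subunit genes PPP1R15A and PPP1R15B, and the kinase genes EIF2AK1, EIF2AK2, EIF2AK3 and EIF2AK4. All 8 had enough counts to be tested in every comparison. eIF2 delivers the initiator tRNA to the ribosome, and its phosphorylation by a stress-activated kinase lowers most translation while it raises that of mRNAs with suitable upstream open reading frames, such as those of ATF4 and ATF5. Each kinase is known for its own trigger, which is haem shortage or mitochondrial stress for HRI (EIF2AK1), double-stranded RNA for PKR (EIF2AK2), misfolded protein in the endoplasmic reticulum for PERK (EIF2AK3) and uncharged tRNA or stalled ribosomes for GCN2 (EIF2AK4). GADD34 (PPP1R15A) and CReP (PPP1R15B) bring protein phosphatase 1 to eIF2 and reverse the phosphorylation, and GADD34 is itself a target of ATF4.

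The libraries were QuantSeq libraries, which count the 3′ ends of polyadenylated mRNAs, from the cytoplasmic RNA of A375, an established human melanoma line. In the siRNA experiment, cells carried a pool of siRNAs against CTU2, a tRNA-thiolating enzyme subunit (siCTU2), or a control siRNA (siGL2), for 42 h. In the medium experiment, cells spent 18 h in medium that lacked glutamine (mQ) or in the control medium (pQ). Cells of each condition were then collected 0, 3 and 5 h after the transcription blocker triptolide (25 µM) alone, called the T arm, or together with the translation blocker cycloheximide (100 µg/ml), called the TCHX arm, which gave 24 groups of 3 libraries. The labels do not say whether replicates came from separate cultures, so p-values measure the spread between these libraries, which may be technical.

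The 72 libraries held 5987692 to 15534331 counts. CTU2 reached 1.76 ± 1.04 CPM in siCTU2 and 22.5 ± 1.58 CPM in siGL2 cells of the T arm at 0 h (SD, n = 3), where CPM stands for counts scaled to the same total in every library. The library labelled siCTU2 TCHX 5 h replicate 3 went against its label, with 117 counts of CTU2 against 2 counts in each of replicates 1 and 2. It had 10.4 CPM of CTU2, below the 17.5 to 29.4 CPM of the siGL2 libraries of that arm and time. That library, mQ T 5 h replicate 3 and pQ TCHX 0 h replicate 3 had counts for 19896 to 20364 genes, against at most 17495 in the other 69. The same 3 libraries had 32.6, 31.1 and 31.8 CPM of PTPRC, a leukocyte surface phosphatase, whereas its highest level in the other 69 was 0.759 CPM. PECAM1, EPCAM, KRT5 and KRT14, markers of endothelium, epithelium and keratinocytes, were each at a median of 0 CPM. Of the melanocyte lineage markers, SOX10, MITF, DCT and S100B had medians of 249.8, 151, 58.4 and 342 CPM, and the pigment genes PMEL, MLANA and TYR had medians of at most 4.55 CPM in those 69 libraries. Fits without these 3 libraries are given beside the fits with all libraries for the TCHX arm at 0 h, decay, the cycloheximide effect and the interaction terms, and for the TDD index means over replicates 1 and 2 are given.

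The annotated mRNAs of the set (MANE transcripts of GENCODE 44 on GRCh38) differed in structure. ATF4 (chromosome 22, 39520562 to 39522683, plus strand) and ATF5 (chromosome 19, 49929205 to 49933935, plus strand) had 3 and 2 ATG triplets in their leaders, and in each mRNA 1 of these opened a frame that ran past the start codon of the protein. Such an overlapping frame was found in 12.7% of 10843 mRNAs with a mean of at least 1 CPM. PPP1R15A (chromosome 19, 48872421 to 48876058, plus strand) and PPP1R15B (chromosome 1, 204403381 to 204411817, minus strand) had 2 upstream ATG triplets each and 0 overlapping frames, and 21.9% of the same mRNAs had 2 or more such triplets. The kinase mRNAs EIF2AK1 (chromosome 7, 6022247 to 6059175, minus strand) and EIF2AK4 (chromosome 15, 39934115 to 40035591, plus strand) had 0 upstream ATG triplets, while EIF2AK2 (chromosome 2, 37099210 to 37156980, minus strand) and EIF2AK3 (chromosome 2, 88556741 to 88627464, minus strand) had 1 each. The triplet of EIF2AK3, like 1 of those in ATF4 and in ATF5, opened a frame that ran past the start codon. That of EIF2AK2 did not. ATF4 and PPP1R15A had short 3′ ends, with 81 and 85 bases after the stop codon, against a median of 1417 bases. EIF2AK2 and PPP1R15B were at the other side, with 8063 and 2711 bases, which hold 22 and 11 ATTTA pentamers. On the opposite strand, the spans of ATF5, EIF2AK1, EIF2AK2 and EIF2AK3 overlap NUP62 and IL4I1, AIMP2 and ANKRD61, GPATCH11 and EIF2AK3-DT. Whether counting used strand is not given in the sources used here, so reads from shared stretches cannot be assigned with certainty.

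The promoters of ATF4 and of the phosphatase subunit genes are shown because PPP1R15A moved with ATF4 between media at 0 h while PPP1R15B did not pass the test. Each is the 250 bases before the start of transcription, read 5′ to 3′ on the strand of the gene (RefSeq, GRCh38.p14), and capitals mark matches to either of 2 motifs searched on both strands, TGATGNAA (core of the C/EBP-ATF composite element) and TGACGTCA (CRE).
ATF4, chr22:39520309-39520558, plus strand: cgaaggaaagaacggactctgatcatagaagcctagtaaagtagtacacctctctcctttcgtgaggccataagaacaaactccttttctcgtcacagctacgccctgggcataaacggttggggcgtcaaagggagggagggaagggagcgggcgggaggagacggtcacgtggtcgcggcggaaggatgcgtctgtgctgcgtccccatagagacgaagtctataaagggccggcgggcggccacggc
PPP1R15A, chr19:48872171-48872420, plus strand: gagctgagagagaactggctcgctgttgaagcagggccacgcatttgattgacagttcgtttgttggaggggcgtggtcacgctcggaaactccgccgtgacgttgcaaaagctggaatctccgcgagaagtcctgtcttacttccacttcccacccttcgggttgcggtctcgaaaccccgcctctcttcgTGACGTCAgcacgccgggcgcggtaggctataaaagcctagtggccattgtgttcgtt
PPP1R15B, chr1:204411818-204412067, minus strand: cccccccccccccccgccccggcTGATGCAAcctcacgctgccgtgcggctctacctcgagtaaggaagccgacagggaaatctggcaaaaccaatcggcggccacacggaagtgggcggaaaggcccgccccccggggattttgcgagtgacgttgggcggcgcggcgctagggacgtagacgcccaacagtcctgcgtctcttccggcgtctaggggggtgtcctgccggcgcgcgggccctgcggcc
PPP1R15A held 1 CRE, 58 to 51 bases before its start, and PPP1R15B held 1 composite core, 227 to 220 bases before its start. The promoters of ATF4, ATF5, EIF2AK2, EIF2AK3 and EIF2AK4 held neither string. Of 34796 promoter windows of the same length, 3.16% held TGATGNAA and 1.64% held TGACGTCA. A match is a description of the letters and not of binding. The promoter table had entries for 7 of the 8 genes, all but EIF2AK1.

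The levels at 0 h were examined first, since these libraries were harvested right after the drugs had been added. In cells without glutamine, ATF4, the central transcription factor of the circuit, and PPP1R15A, its phosphatase feedback gene, were several-fold higher. The transcription factor gene ATF5 was higher by less, and EIF2AK3 (PERK) was lower. In the T arm at 0 h, ATF4 stood at 1213, 1551 and 1269.9 CPM in the mQ libraries and at 215, 223 and 246 CPM in the pQ libraries. The groups did not overlap, and the means were 1345 ± 181 CPM and 228 ± 16.4 CPM (SD, n = 3), a log2 fold change of 2.61 ± 0.12 (SE, adjusted p = 2.68e-07 by edgeR). PPP1R15A stood at 163, 123 and 231 CPM in mQ and at 60.4, 47.6 and 44.04 CPM in pQ cells. All mQ libraries were above all pQ libraries, although mQ replicates ranged widely, and the log2 fold change was 1.82 ± 0.20 (SE, adjusted p = 1.50e-04 by edgeR). With ATF5 and EIF2AK3, 4 of the 8 genes passed the test, 3 higher and 1 lower, against 24.8% of 12374 genes tested (12.5% higher and 12.4% lower). In bulk RNA, fewer cells that carry an mRNA and less of it per cell cannot be told apart.

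The smaller differences of the medium experiment were less stable. ATF5, which like ATF4 is controlled through upstream reading frames, stood at 49.6, 53.5 and 53.8 CPM in mQ and 37.8, 37.03 and 42.9 CPM in pQ libraries of the T arm, with a log2 fold change of 0.47 ± 0.12 (SE, adjusted p = 0.0158 by edgeR). In the TCHX arm at 0 h, whose cells had the same pretreatment but had received cycloheximide as well just before harvest, ATF5 stood at 43.9, 39.8 and 39.5 CPM in mQ and 36.9, 41.2 and 48.6 CPM in pQ libraries, and the log2 fold change was -0.032 (edgeR adjusted p = 0.922). Here the groups overlapped. Whether the difference between media itself differed between the arms was not tested. Within a medium, TCHX minus T at 0 h was -0.32 for ATF5 in mQ and 0.031 in pQ cells (unadjusted p = 0.213 and 0.905 by edgeR). ATF5 also lost its T arm call without pQ replicate 1 (0.44, edgeR adjusted p = 0.0775) or pQ replicate 2 (0.42, edgeR adjusted p = 0.0825). EIF2AK3 had 12.4, 11.1 and 14.4 CPM in mQ against 20.7, 18.96 and 17.6 CPM in pQ libraries (log2 fold change -0.54, SE 0.17, edgeR adjusted p = 0.0404) and a TCHX arm value of 0.15 (edgeR adjusted p = 0.789), or -0.12 without pQ replicate 3, the library with extra genes. Its T arm call was lost without any 1 of mQ replicates 1 and 2 and pQ replicates 1, 2 and 3, over all of which and mQ replicate 3 the value lay between -0.65 and -0.45. ATF4 and PPP1R15A passed in that arm too, at 1.85 and 1.74 with all libraries and at 2.38 and 1.67 without that library, whose own ATF4 level was 498 CPM beside 237 and 206 CPM in replicates 1 and 2. PPP1R15B, EIF2AK1, EIF2AK2 and EIF2AK4 did not pass the test in the T arm, with log2 fold changes of 0.20, 0.071, -0.29 and -0.11 (edgeR adjusted p = 0.327, 0.655, 0.125 and 0.555). EIF2AK2 passed without mQ replicate 3 (-0.40, edgeR adjusted p = 0.0371).

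**Figure D1:**
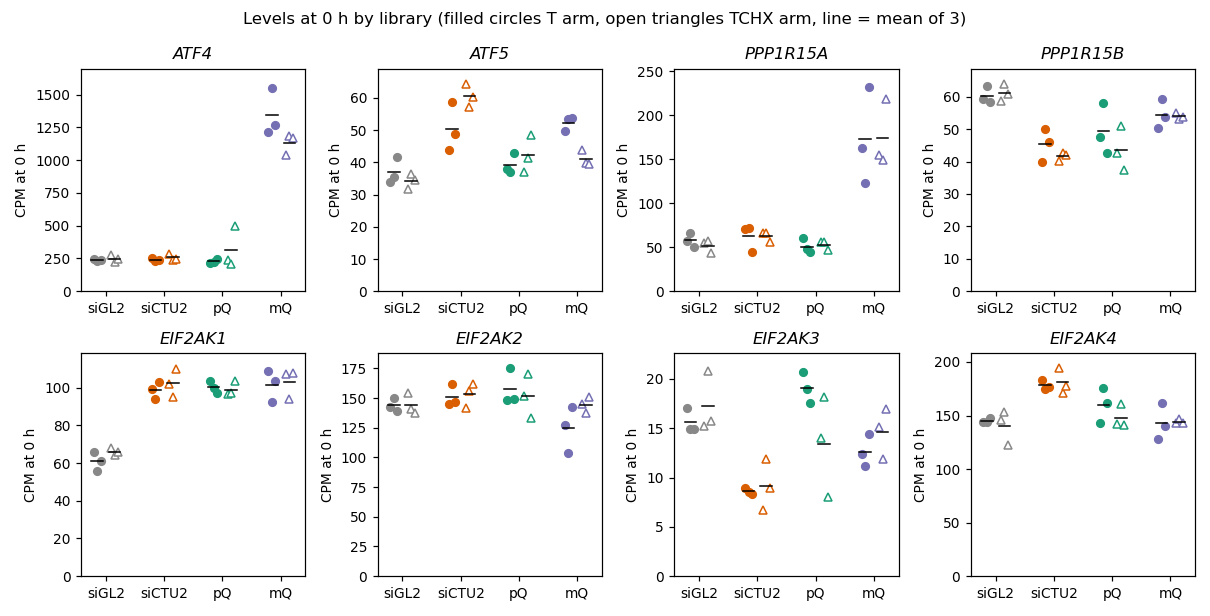
Level of each gene at 0 h in CPM (y axis, from 0) for the 4 conditions (x axis). Filled circles are the 3 libraries of the T arm, open triangles those of the TCHX arm, and short lines their means. ATF4 and PPP1R15A lie higher in mQ than in the other conditions, and EIF2AK1 lies lower in siGL2.

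Between siCTU2 and siGL2 cells, EIF2AK1 and EIF2AK4 were higher and EIF2AK3 was lower in the siCTU2 cells, while ATF4 and PPP1R15A did not pass the test. Of the 8 genes, 5 passed between siCTU2 and siGL2 cells at 0 h, 3 higher and 2 lower, against 36% of 12292 genes tested (17.8% higher and 18.2% lower). EIF2AK1 (HRI) stood at 99.3, 93.97 and 103 CPM in siCTU2 and 65.7, 55.8 and 61.1 CPM in siGL2 libraries, a log2 fold change of 0.70 ± 0.092 (SE, adjusted p = 9.38e-06 by edgeR). The groups did not overlap. EIF2AK3 (PERK) stood at 8.96, 8.48 and 8.32 CPM (85 to 107 counts) in siCTU2 and 17.1, 14.9 and 14.9 CPM (121 to 148 counts) in siGL2 libraries, a log2 fold change of -0.87 ± 0.18 (SE, adjusted p = 8.43e-04 by edgeR). Here the siCTU2 libraries were all lower. EIF2AK4 (GCN2) was higher, at 183, 175 and 176 against 144, 144 and 148 CPM (0.29, SE 0.072, edgeR adjusted p = 0.00371), and EIF2AK2 (PKR), at 145, 162 and 146 against 143, 149.9 and 139.5 CPM, did not pass (0.064, SE 0.078, edgeR adjusted p = 0.557).

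The other members of the circuit split in the same experiment. PPP1R15B (CReP) was lower in siCTU2 cells, at 39.9, 49.98 and 46.1 CPM against 59.3, 63.4 and 58.3 CPM (-0.41, SE 0.11, edgeR adjusted p = 0.00535). ATF5 was higher, at 43.8, 58.6 and 48.8 against 33.8, 35.5 and 41.7 CPM (0.44, SE 0.13, edgeR adjusted p = 0.01), and it lost the call without siCTU2 replicate 2 (0.33, edgeR adjusted p = 0.0684) or without siGL2 replicate 1 (0.38, edgeR adjusted p = 0.0612). ATF4 stood at 253, 228 and 242 CPM in siCTU2 and 246, 228 and 235 CPM in siGL2 libraries, a log2 fold change of 0.024 ± 0.071 (SE, adjusted p = 0.825 by edgeR). The groups overlapped over nearly their whole range. PPP1R15A, its feedback gene, stood at 71.02, 72.02 and 44.3 CPM in siCTU2 and 57.3, 65.97 and 50.5 CPM in siGL2 libraries and had a log2 fold change of 0.099 ± 0.15 (SE, adjusted p = 0.647 by edgeR). In the TCHX arm at 0 h the 5 genes that passed were again ATF5 (0.83), EIF2AK1 (0.64), EIF2AK4 (0.38), EIF2AK3 (-0.90) and PPP1R15B (-0.55). The share of all genes that passed in that arm is not given here.

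**Figure D2:**
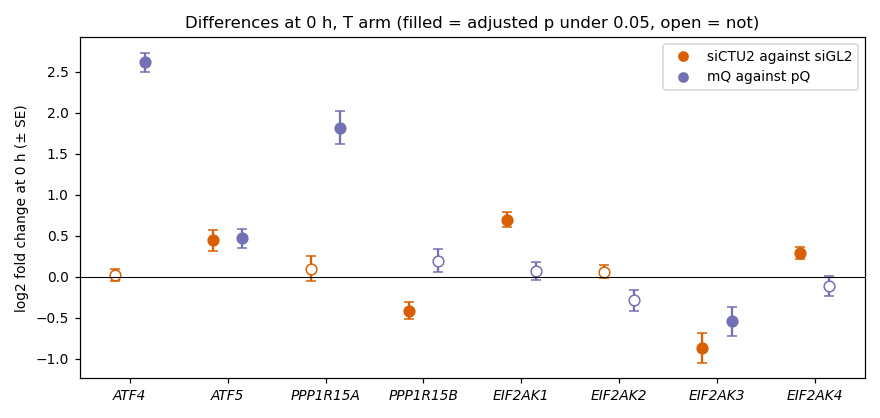
Log2 fold change at 0 h in the T arm with its standard error (y axis) for the 8 genes (x axis), for siCTU2 against siGL2 and for mQ against pQ. Filled points passed an edgeR adjusted p of 0.05. ATF4 and PPP1R15A stand out in the medium experiment (2.61 and 1.82), and EIF2AK1 and EIF2AK3 in the siRNA experiment (0.70 and -0.87).

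Set side by side over the 4 conditions, each kinase mRNA had its own order of levels in the T arm at 0 h. EIF2AK1 was lowest in siGL2 cells (60.9 ± 4.96 CPM, SD, n = 3), and its siCTU2, pQ and mQ means of 98.7, 100.3 and 102 CPM lay within 1 SD of each other. No siGL2 library reached any library of the other conditions, in either arm. EIF2AK3 levels followed the order siCTU2, mQ, siGL2 and pQ, with means of 8.59, 12.6, 15.6 and 19.1 CPM. No siCTU2 library overlapped any library of the other conditions in the T arm. The order differed in the TCHX arm, where it was siCTU2, pQ, mQ and siGL2 with means of 9.16, 13.4, 14.6 and 17.2 CPM, and where the pQ libraries, among them the one with extra genes, were at 13.98, 18.2 and 8.01 CPM. EIF2AK2 lay between 125 (mQ) and 157 CPM (pQ), and EIF2AK4 between 143 (mQ) and 178 CPM (siCTU2). Differences between the siRNA and the medium experiment were not tested, because the experiments differ in transfection and in time.

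Around these genes, a list of 21 partners (eIF2 and eIF2B subunits, kinase regulators, phosphatase catalytic subunits and reinitiation factors) and a list of 12 known ATF4 targets were followed by counts. Of the targets, 10 were tested and all 10 had higher levels in mQ cells at 0 h, with a median log2 fold change of 2.49 against 0.0098 over all genes, of which 12.5% were higher. As an earlier look at these data had shown targets to be high in mQ cells, the count is a description. The leading targets were CHAC1 (6.05), which degrades glutathione, the stress regulator NUPR1 (5.96), the pseudokinase TRIB3 (3.20), the transcription factor DDIT3 (3.16) and ATF3 (3.00). Between siCTU2 and siGL2 cells, 3 targets were higher and 1 was lower, with a median of 0.038, against 17.8% and 18.2% of all genes. The higher ones included the cystine transporter gene SLC7A11 (2.80) and ATF3 (1.09). Of 20 partners tested, 5 were higher and 3 lower in mQ cells (median 0.040), where 12.5% and 12.4% of all genes were higher and lower, and 6 were higher and 4 lower in siCTU2 cells (median 0.078), against 17.8% and 18.2% of all genes. None of the partners that passed reached a 2-fold change. ASNS and SESN2 of the targets and MCTS1 of the partners had too few counts under those names to be tested.

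The decay of the 8 mRNAs was followed in the T arm, where transcription was blocked. Counts were scaled to genes whose CPM had risen by a factor of 1.1 or more at either later time, in each arm, replicate and condition. There were 198 such genes in the siRNA and 82 in the medium experiment, none of them among the 8. Only 8 of the 198 and 3 of the 82 met the rule at both times, so most need not have risen at the other time. Changes are means of 3 h and 5 h minus 0 h. On this scale the median over all genes was -0.59 in siGL2, -0.71 in siCTU2, -0.71 in pQ and -0.66 in mQ cells (log2), so a gene below that median left faster than the typical mRNA. Of the 8 genes, 7 fell in siGL2, 7 in siCTU2, 7 in pQ and 8 in mQ cells, against 47.5%, 62.6%, 64.3% and 58.6% of all genes that were lower. In mQ cells all 8 still fell without T 5 h replicate 3 (extra genes, as above), with log2 changes of -1.81 for ATF4, -1.13 for ATF5, -3.64 for PPP1R15A, -2.90 for PPP1R15B, -2.03 for EIF2AK3 and -0.44, -0.41 and -0.80 for EIF2AK1, EIF2AK2 and EIF2AK4. TMM scaling sets the typical gene near no change, and 2, 4, 3 and 4 of the 8 were then lower in siGL2, siCTU2, pQ and mQ cells, against 15.8%, 18.4%, 16.9% and 12.1% of all genes. With it the values of ATF5 (outside mQ) and EIF2AK1 turned positive, as did those of EIF2AK2 in siCTU2 and mQ cells and of EIF2AK4 in siGL2, siCTU2 and pQ cells. In siGL2 cells 3 of the 8 passed without replicate 1 or without replicate 2, the calls of all 4 kinase genes being lost in both. The share of all genes that passed without those replicates is not given here. Of the 10 targets tested, 7, 7, 7 and 8 were lower in siGL2, siCTU2, pQ and mQ cells, and of the 20 partners, 8, 16, 15 and 14, with 0 higher in either list.

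PPP1R15A and PPP1R15B had the largest falls in siGL2, pQ and mQ cells. PPP1R15A was left at 6.22%, 12.3% and 16.7% of its 0 h count after 3 h in mQ replicates 1 to 3, and at 23.6%, 19.04% and 15.5% in pQ. After 5 h the means were 10.1% ± 6.24 in mQ, 15.4% ± 9.31 in pQ, 15.5% ± 7.70 in siGL2 and 22.7% ± 11.6 in siCTU2 cells (SD, n = 3). The mQ libraries were at 4.90%, 8.28% and 16.99%, and without replicate 3, the library with extra genes, their mean was 6.59%. The log2 changes of PPP1R15A were -2.39, -1.87, -2.49 and -3.04 in siGL2, siCTU2, pQ and mQ cells (edgeR adjusted p = 7.25e-05, 7.10e-05, 4.57e-06 and 8.54e-05). PPP1R15B was left at 52.4%, 41.1% and 39.5% after 3 h in siGL2, 45.4%, 27.4% and 32.02% in siCTU2, 31.98%, 26.3% and 23.6% in pQ and 16.5%, 19.1% and 16.4% in mQ cells. At 3 h the spread between replicates was small beside the loss. After 5 h in mQ cells PPP1R15B was left at 12.4%, 9.32% and 38.9%, the highest being the library with extra genes, without which the mean was 10.8%. PPP1R15B had log2 changes of -1.38, -1.95, -2.10 and -2.39 (edgeR adjusted p = 3.06e-07, 2.20e-07, 4.45e-08 and 3.35e-05). Both stayed below 0 with TMM scaling, at -1.82, -1.22, -1.83 and -2.40 for PPP1R15A and -0.74, -1.22, -1.39 and -1.76 for PPP1R15B in the same order.

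ATF4 fell to below 50% of its 0 h count in each group mean. It was left at 41.6%, 46.4% and 39.96% after 3 h in siGL2, 38.7%, 49.2% and 38.1% in siCTU2, 41.6%, 39.2% and 39.04% in pQ and 29.4%, 25.6% and 57.1% in mQ cells. The value of mQ replicate 3 stood apart, and the same library had the highest ATF4 level of its group (1212 CPM beside 514 and 598 CPM). The log2 changes were -1.21, -1.32, -1.29 and -1.63 (siGL2, siCTU2, pQ and mQ, edgeR adjusted p = 2.50e-06, 2.38e-05, 6.07e-05 and 1.14e-04). ATF5 behaved otherwise, being left at 84.7% ± 20.4, 84.2% ± 8.71 and 90.1% ± 20.8 after 5 h in siGL2, siCTU2 and pQ cells and at 51.8% ± 7.14 in mQ cells (SD, n = 3), where the mean without the library with extra genes was 48.7%. It fell in mQ cells (-1.04, SE 0.21, edgeR adjusted p = 5.57e-04), where its 3 h values were 39.3%, 41.5% and 52.5%, and did not pass in the others (-0.33, -0.31 and -0.32). The difference in this change between mQ and pQ cells was -0.72 and did not pass when it was tested itself.

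Among the kinases, EIF2AK3 was the least stable mRNA. In siCTU2 cells it was left at 22.3%, 18.01% and 26.7% after 3 h and at 4.87%, 6.59% and 4.09% after 5 h, when the libraries held 5 to 10 counts. In siGL2 cells it was left at 49.9%, 46.4% and 58.5% after 3 h and at 41.2%, 36.3% and 9.57% after 5 h. At 3 h the siCTU2 libraries were all below the siGL2 libraries, and at 5 h siGL2 replicate 3 came close to them. The log2 changes of EIF2AK3 were -1.36, -3.19, -1.71 and -1.76 in siGL2, siCTU2, pQ and mQ cells (edgeR adjusted p = 0.00622, 2.13e-05, 1.73e-04 and 2.12e-04). EIF2AK1, EIF2AK2 and EIF2AK4 lost less, with log2 changes from -0.84 (EIF2AK2 in pQ) to -0.40 (EIF2AK2 in mQ), values near the median of all genes. Their means lay between 51.3% and 80.04% of the 0 h count at 3 h and 5 h.

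**Figure D3:**
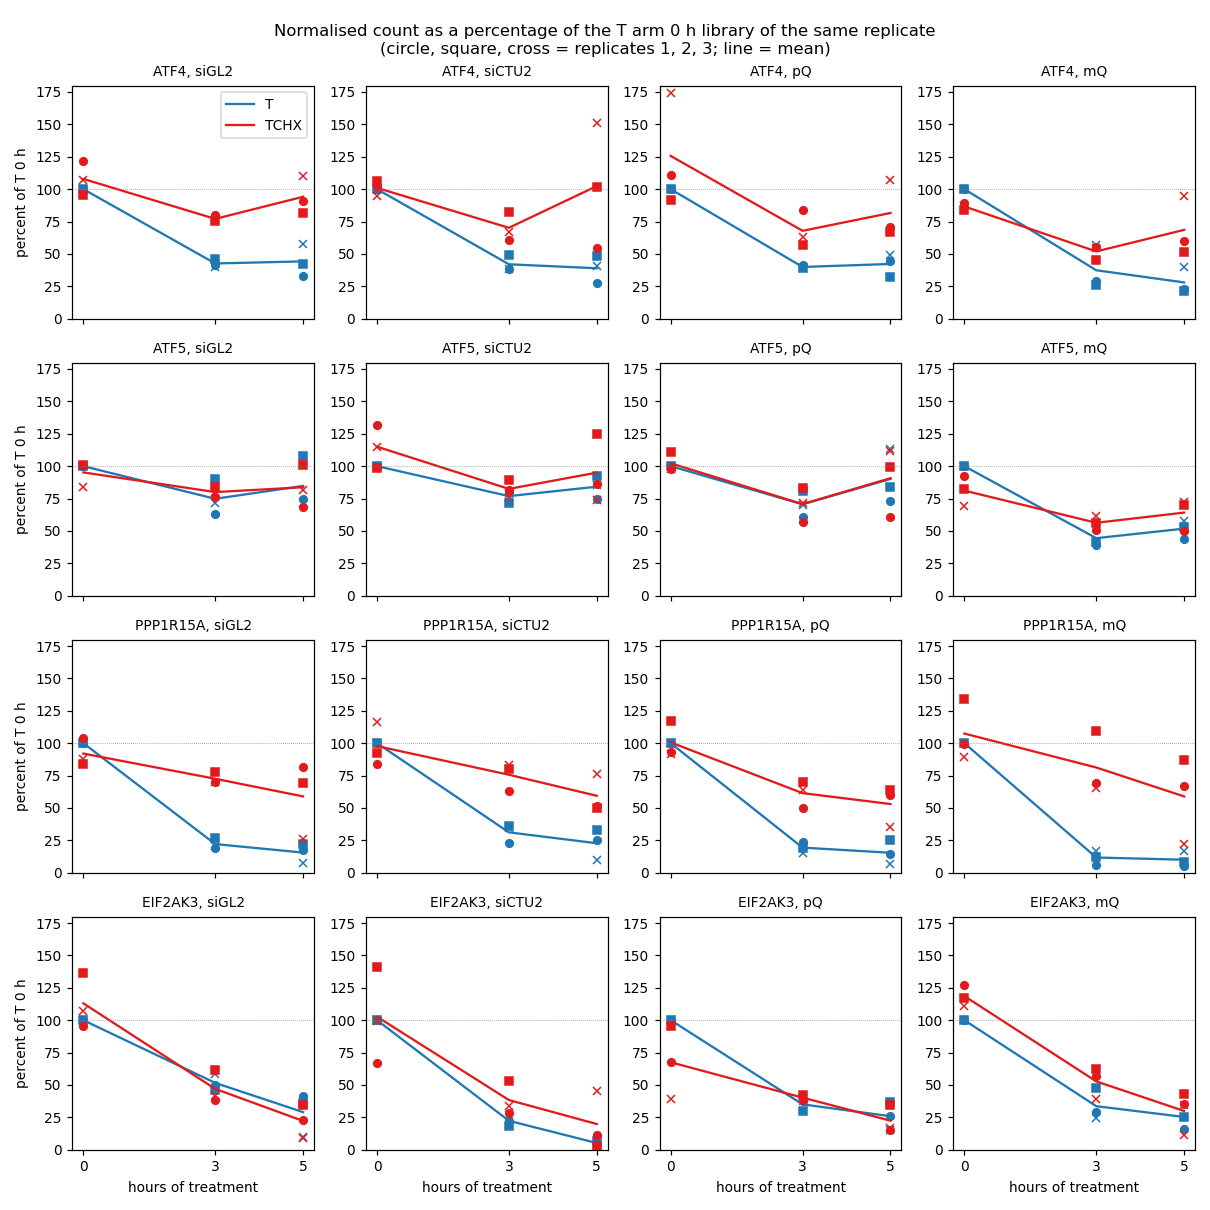
Normalised count as a percentage of the T arm 0 h library of the same replicate (y axis) against hours of treatment (x axis) for ATF4, ATF5, PPP1R15A and EIF2AK3 (rows) in the 4 conditions (columns). Blue is the T arm, red the TCHX arm, symbols are the 3 replicates and lines their means. The mean lines of the arms part for ATF4 and PPP1R15A in all 4 conditions, and EIF2AK3 in siCTU2 cells reaches 5.18% in the T arm at 5 h.

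The effect of cycloheximide, which keeps ribosomes on the mRNA and stops elongation, was measured as TCHX minus T over 3 h and 5 h. ATF4 and PPP1R15A were higher with the drug in all 4 conditions and PPP1R15B in 3 of them, whereas EIF2AK1, EIF2AK2, EIF2AK4 and ATF5 did not pass in any condition on the scale of the stable genes. Members higher with cycloheximide numbered 3 in siGL2, 4 in siCTU2, 2 in pQ and 3 in mQ cells against 12.1%, 21%, 12.3% and 5.12% of all genes that were higher, and none was lower. With TMM scaling 2, 2, 2 and 3 of the 8 were higher, against 10.5%, 13.4%, 10.5% and 7.48% of all genes, and EIF2AK2 was lower in each condition (-0.33, -0.27, -0.31 and -0.38), against 2.65%, 4.05%, 1.67% and 1.39% of all genes. PPP1R15A had log2 effects of 1.81, 1.25, 1.69 and 2.36 in siGL2, siCTU2, pQ and mQ cells (edgeR adjusted p = 9.04e-04, 0.00201, 2.71e-04 and 0.00499). At 3 h in mQ cells it was left at 69.4%, 109% and 65.1% in the TCHX arm, against 6.22%, 12.3% and 16.7% in the T arm. The 2 arms did not overlap at 3 h in any condition. ATF4 had effects of 0.97, 1.07, 0.86 and 0.87 (edgeR adjusted p = 1.64e-05, 1.25e-04, 0.00244 and 0.0285), and its 3 h means in the TCHX arm were 77.03% ± 2.64, 70.2% ± 10.95, 67.8% ± 14.01 and 51.9% ± 5.56 of the T arm 0 h count. The arms of ATF4 overlapped at 3 h in mQ cells, where T replicate 3 was high, and in no other condition. PPP1R15B had effects of 0.46, 0.51, 0.46 and 1.03, of which that in pQ did not pass (edgeR adjusted p = 0.0629). The same T arm libraries enter the decay and the cycloheximide values, so the pair of values of a gene is not independent. In the 0 h libraries, harvested right after the drugs had been added, TCHX minus T passed in 0 genes of any condition with edgeR, and before adjustment 96, 160, 287 and 311 genes had p under 0.05 in siGL2, siCTU2, pQ and mQ cells.

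Calls of the cycloheximide effect depended on single replicates. In mQ cells none of the 8 genes passed without replicate 1 or without replicate 2, when PPP1R15A was at 2.01 and 2.02 (edgeR adjusted p = 0.289 and 0.507), and ATF4 at 0.77 and 0.80 (edgeR adjusted p = 0.348 and 0.541). The values stayed positive. Without replicate 1, ATF4 alone passed in siGL2 cells and in siCTU2 cells, where PPP1R15A was at 1.66 and 1.26, and ATF4 lost its call in pQ cells (0.85, edgeR adjusted p = 0.0794). With the 0 h difference between the arms subtracted, 1 gene of the 8 passed in siGL2, siCTU2 and pQ cells each and 0 in mQ cells. The share of all genes that passed in these refits is not given here. Whether these genes lost calls more often than others therefore cannot be told. Of the targets, 4, 6, 6 and 6 of 10 were higher with cycloheximide in siGL2, siCTU2, pQ and mQ cells and 1, 0, 0 and 0 lower, and of the partners 0, 4, 0 and 0 of 20 were higher and 0 lower. In the same order, 12.1%, 21%, 12.3% and 5.12% of all genes were higher, so the partners in siCTU2 cells were near the share of all genes. The share of all genes that were lower is not given here.

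Within the TCHX arm, where translation was blocked as well, EIF2AK3 and PPP1R15B had the largest falls of the set in all 4 conditions, with log2 changes of -1.78, -1.88, -1.17 and -1.63 for EIF2AK3 and -0.97, -1.24, -1.40 and -1.39 for PPP1R15B in siGL2, siCTU2, pQ and mQ cells (edgeR adjusted p at most 0.00736). ATF4 fell in pQ cells (-0.77, edgeR adjusted p = 0.00745) and did not pass in the other conditions, with -0.35, -0.27 and -0.54 in siGL2, siCTU2 and mQ cells. PPP1R15A likewise fell in pQ cells (-0.81, edgeR adjusted p = 0.0408), and its values elsewhere were -0.45, -0.55 and -0.72. EIF2AK2 fell in all 4 conditions (-0.94, -0.66, -0.95 and -0.94), and ATF5 passed in none (-0.21, -0.34, -0.34 and -0.40). The median over all genes in this arm is not given here. Whether a fall in it exceeds that of the typical mRNA therefore cannot be told. The pQ value of ATF4 rests on the 0 h library with extra genes, the one with 498 CPM. Without it the changes in pQ cells were -0.39 for ATF4 and -0.96 for PPP1R15A (edgeR adjusted p = 0.0982 and 0.0331), and without the library against its label EIF2AK3 in siCTU2 cells was at -2.62 (edgeR adjusted p = 3.24e-05) and ATF4 at -0.47 (edgeR adjusted p = 0.0303). ATF4 in mQ cells passed once T 5 h replicate 3 was left out of the fit (edgeR adjusted p = 0.0404, 0.0744 with it). Its value stayed at -0.54, as that library does not enter this change. EIF2AK1 was at -0.73, -0.46, -0.46 and -0.66 and EIF2AK4 at -0.43, -0.49, -0.31 and -0.62, of which EIF2AK1 in siCTU2 and EIF2AK4 in pQ cells did not pass. Without the libraries with extra genes both passed, EIF2AK1 in siCTU2 cells at -0.51 (edgeR adjusted p = 0.0433) and EIF2AK4 in pQ cells at -0.42 (edgeR adjusted p = 0.0222). Over all genes, 6676 of 13161, 3219 of 13638, 7022 of 13347 and 8447 of 13442 passed in this arm in the same order of conditions. In the fits without the libraries with extra genes, 3983 of 14027, 7294 of 13740 and 9700 of 13639 passed in siCTU2, pQ and mQ cells. These counts hold genes that were higher as well as genes that were lower.

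The cycloheximide effect of EIF2AK3 passed in siCTU2 cells, at 1.32 ± 0.43 (SE, adjusted p = 0.0326 by edgeR) beside -0.25, -0.0061 and 0.37 in siGL2, pQ and mQ cells. Its TCHX levels at 5 h were 1.42, 0.337 and 5.32 CPM, and replicate 3, the highest, is the library that goes against its label. Without that library the effect was 0.59 and did not pass (edgeR adjusted p = 0.296), and PPP1R15B in siCTU2 cells lost its call as well (0.32, edgeR adjusted p = 0.101). In mQ cells, leaving out T 5 h replicate 3 moved PPP1R15A to 2.96 and PPP1R15B to 1.54, and leaving out pQ TCHX 0 h replicate 3 gave PPP1R15B in pQ a call (0.46, edgeR adjusted p = 0.0422). That mQ library had 400 counts of JUN, a short-lived mRNA, beside 2 and 9 counts in replicates 2 and 1, and what made it so was not tested.

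**Figure D4:**
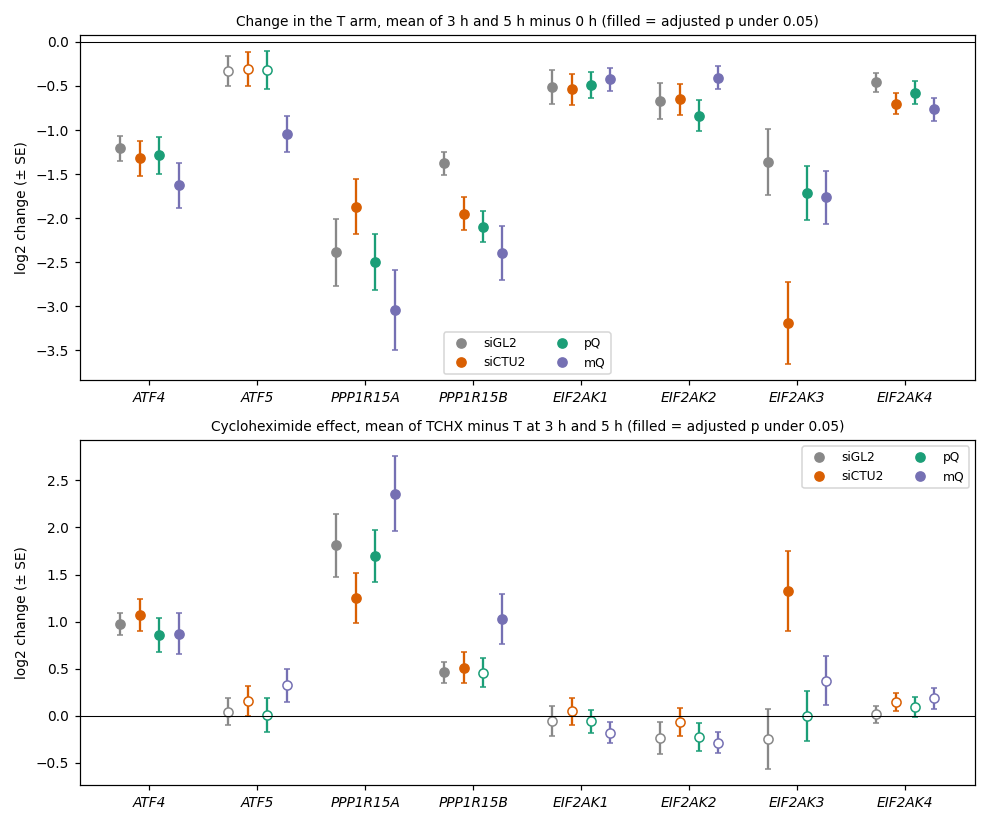
Log2 change with its standard error (y axes) for the 8 genes (x axis) in the 4 conditions. The upper panel gives the change in the T arm, the lower panel the cycloheximide effect, and filled points passed an edgeR adjusted p of 0.05. PPP1R15A has the largest cycloheximide effects in siGL2, pQ and mQ cells (1.81, 1.69 and 2.36), and EIF2AK3 in siCTU2 cells has the largest fall (-3.19).

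Interaction terms were used to compare decay and the cycloheximide effect between conditions, over the 36 libraries of each experiment. With all libraries, none of the 8 genes passed in any of the 4 tests, in which 0.105% (decay, siCTU2 minus siGL2), 0.379% (cycloheximide, siCTU2 minus siGL2), 0% and 0% (decay and cycloheximide, mQ minus pQ) of all genes passed with edgeR, and before adjustment 772, 1316, 878 and 525 genes were under 0.05. DESeq2 also called 0 of the 8 in each. The values furthest from 0 were those of EIF2AK3 between siCTU2 and siGL2 cells, at -1.83 ± 0.64 (SE, adjusted p = 0.489 by edgeR) for decay and 1.58 ± 0.55 (SE, adjusted p = 0.27 by edgeR) for cycloheximide. They were -1.83 and 0.84 without the library against its label. Between mQ and pQ cells, PPP1R15A had -0.55 ± 0.61 (SE, adjusted p = 0.829 by edgeR) for decay and 0.67 ± 0.50 (SE, adjusted p = 1 by edgeR) for cycloheximide, and PPP1R15B had 0.58 ± 0.32 (SE, adjusted p = 1 by edgeR) for cycloheximide. ATF4 was at 0.015 ± 0.29 (SE, adjusted p = 1 by edgeR), so that a difference in either direction is within its SE.

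These differences depended on replicate 3, which holds the 3 libraries with extra genes. Without replicate 3, PPP1R15A passed between mQ and pQ cells for decay (-1.44, edgeR adjusted p = 5.47e-04) and for cycloheximide (1.87, edgeR adjusted p = 2.18e-06). ATF4 then passed for decay (-0.69, edgeR adjusted p = 0.0255) and PPP1R15B for cycloheximide (1.03, edgeR adjusted p = 0.00479). Without only the libraries with extra genes, PPP1R15B passed for cycloheximide (1.08, edgeR adjusted p = 0.00773), while PPP1R15A did not (1.26, edgeR adjusted p = 0.232). In the siRNA experiment, EIF2AK3 passed for decay without replicate 3 (-1.99, edgeR adjusted p = 0.0283). These refits hold fewer libraries, and the share of all genes that passed in them is not given here. Whether these genes stood out from others in the refits therefore cannot be told.

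The study's measure of translation-dependent decay, the TDD index, is the difference between the TCHX and T counts of 1 time as a share of the count at 0 h, for which the mean of both arms was used. The index of ATF4 was 0.404 ± 0.0477 in siGL2, 0.459 ± 0.237 in siCTU2, 0.297 ± 0.0271 in pQ and 0.295 ± 0.0369 in mQ cells, and that of PPP1R15A was 0.487 ± 0.108, 0.404 ± 0.111, 0.397 ± 0.0220 and 0.555 ± 0.242 (SD, n = 3 replicate means of 3 h and 5 h). These were the genes of the set with the highest index in every condition. The siCTU2 values include the library against its label. At 5 h the siCTU2 index of ATF4 was 0.267, 0.517 and 1.13 in replicates 1 to 3 and that of PPP1R15A was 0.288, 0.179 and 0.611, in both of which replicate 3 was highest. The means of replicates 1 and 2 alone, without that library, were 0.332 for ATF4 and 0.342 for PPP1R15A in siCTU2 cells. Without replicate 3, which holds the libraries with extra genes of the medium experiment as well, the means were 0.297 in pQ and 0.304 in mQ cells for ATF4, and 0.392 and 0.690 for PPP1R15A. The siCTU2 minus siGL2 difference of ATF4 was 0.0556 (unadjusted p = 0.668) with all replicates and -0.060 (unadjusted p = 0.447) without replicate 3. EIF2AK1 and EIF2AK2 had means between -0.116 and 0.0184. In the linear model with condition, time and replicate, none of the 8 genes passed an unadjusted p of 0.05 between siCTU2 and siGL2 cells, where 8.15% of genes passed, and ATF5 passed between mQ and pQ cells, where 4.78% passed. At an adjusted p of 0.05 the share of genes passing was 0% in both comparisons. ATF5 had an index of 0.135 ± 0.0412 in mQ and 0.00170 ± 0.0813 in pQ cells, a difference of 0.133 (SE 0.0296, unadjusted p = 0.00278, adjusted p = 0.72). EIF2AK3 came closest between siCTU2 and siGL2 cells, with a difference of 0.209 (unadjusted p = 0.0524), and passed without replicate 2 (0.28, unadjusted p = 0.0295). Its siCTU2 index at 5 h was 0.0741, -0.0315 and 0.417, the highest being that of replicate 3, which rests on the library against its label, and without replicate 3 the difference was 0.15 (unadjusted p = 0.104). Without replicate 3, PPP1R15A, PPP1R15B and EIF2AK3 passed beside ATF5 between mQ and pQ cells, with differences of 0.30, 0.16 and 0.18. The share of all genes that passed without replicate 3 is not given here. Of the targets 2 and 3 of 10, and of the partners 1 and 1 of 20, had a higher index in siCTU2 and in mQ cells, and 0 a lower one.

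Finally, the genes whose levels over the 24 groups were most like those of ATF4, ATF5 and PPP1R15A were listed, by the Pearson correlation of mean log2(CPM + 1) among 8223 genes with a mean of at least 10 CPM. These groups share cells, depth and treatment, so the correlations are descriptions. For ATF4 they were DELE1 (0.97), GPT2 (0.95), TRIB3 (0.95), EZH1 (0.95) and OGA (0.95). DELE1 encodes a mitochondrial protein and GPT2 a mitochondrial transaminase. For PPP1R15A they were DDIT3 (0.97), MAFF (0.96), NFE2L2 (0.96), BTG1 (0.95) and HEATR6 (0.95), and DDIT3 encodes CHOP. For ATF5 they were SYNGR2 (0.92), HACD2 (0.91), WDR45B (0.90), ANKRD9 (0.89) and SMTN (0.89). Between the members, ATF4 and PPP1R15A had a correlation of 0.78 over the groups, and ATF4 and ATF5 one of -0.060.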

How the data were processed

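Cytoplasmic RNA of A375 cells was measured in 72 QuantSeq libraries, whose groups and replicate numbers come from the labels. The values used are the raw counts deposited by the authors. To make them, the authors trimmed forward reads with fastp 0.20.1, mapped them with HISAT2 2.2.1 to GRCh38.p13 and assigned them to genes with htseq-count (HTSeq 0.13.5). Molecular identifiers are not mentioned, so PCR copies may be among the counts. The errors given cover the spread between libraries.

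Tests were made in R 4.3.3 with edgeR 4.0.16 (filterByExpr, quasi-likelihood F-test, Benjamini-Hochberg adjustment over all genes tested, threshold 0.05). The 6 libraries at 0 h were scaled by TMM. Time courses (18 libraries a condition, 36 for an interaction) were scaled to stable genes, after the study's methods. These had over 0.2 CPM at 0 h and, at 3 h or at 5 h, a CPM of at least 1.1 times the starting value, which itself exceeded 0.1 times the later one, in both arms, all replicates and both conditions of an experiment. Such genes are selected for rising CPM, and every change over time is relative to theirs. TDD indices were modelled linearly on condition, time and replicate where normalised 0 h counts averaged 10 or more. The 3 h and 5 h indices of a replicate share their 0 h counts and entered the model as separate values. The scripts were tested on simulated data. The simulation held no general decay and no replicate effect. It used the library totals as the scale, so it did not test the scaling to stable genes.

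The main edgeR fits held no replicate term. In the siRNA libraries of the T arm at 0 h the deviations of same-numbered libraries correlated with r between 0.11 and 0.31 in 3 pairs, and a replicate block changed no call there. Alternatives were DESeq2 1.42.0, other scalings, no filter on low counts, stability at both times, single times, the other arm, a replicate block and libraries left out. Fits of the TCHX arm and means without the libraries with extra genes were added after seeing the data. The 8 genes and both lists were chosen with earlier results of these data known. All 8 are named throughout, and list genes are named where they passed with a change of at least 2-fold, at most 5 a comparison.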

Additional observations from a re-analysis of the deposited data

Results flagged for a closer look

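The TDD index of ATF5 was singled out because it differed between mQ and pQ cells in the test of the difference itself, by 0.133 (SE 0.0296, unadjusted p = 0.00278, adjusted p = 0.72). In mQ cells the index was 0.116, 0.165 and 0.112 at 3 h and 0.0650, 0.180 and 0.172 at 5 h in replicates 1 to 3. In pQ cells it was -0.0366, 0.0213 and 0.0168 at 3 h and -0.122, 0.145 and -0.0142 at 5 h. All 6 mQ values were above 0, and the pQ values lay on both sides of 0. The 3 h and 5 h values of a replicate share their 0 h counts, so the 6 values are not independent. The model took them as separate values. With TMM scaling the difference was 0.25 (unadjusted p = 0.075). In 4.78% of all genes the same model gave a p of at most 0.05, and the difference in ATF5 fails the correction for multiple tests. Groups of 3 libraries are too small for the search for single outlying samples.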

How the results depend on the processing

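Of the alternative values of single genes, 1143 kept their direction and their side of the threshold, 92 lost a call, 33 gained one and 100 changed sign. The causes of these changes were not tested. For most alternatives the share of all genes that passed is not given here. A change in the number of these 8 genes that passed therefore cannot be told from a change in all genes. With TMM scaling, the number of the 8 genes passing moved to 2 (T arm change over time, siGL2), 4 (T arm change over time, siCTU2), 3 (T arm change over time, pQ), 4 (T arm change over time, mQ) and 1 (TDD index, siCTU2 minus siGL2). At 3 h alone, the number of the 8 genes passing moved to 4 (T arm change over time, siGL2), 1 (cycloheximide effect, siGL2), 0 (cycloheximide effect, siCTU2), 1 (cycloheximide effect, pQ) and 0 (cycloheximide effect, mQ). At 5 h alone, the number of the 8 genes passing moved to 0 (cycloheximide effect, mQ). With the 0 h difference between arms subtracted, the number of the 8 genes passing moved to 1 (cycloheximide effect, siGL2), 1 (cycloheximide effect, siCTU2), 1 (cycloheximide effect, pQ) and 0 (cycloheximide effect, mQ). In the TCHX arm, the number of the 8 genes passing moved to 2 (at 0 h, mQ against pQ). With each arm divided by its own 0 h library, the number of the 8 genes passing moved to 1 (TDD index, siCTU2 minus siGL2) and 2 (TDD index, mQ minus pQ). Without the libraries with extra genes, the number of the 8 genes passing moved to 2 (cycloheximide effect, siCTU2) and 1 (cycloheximide effect, mQ minus pQ). In the TCHX arm without pQ replicate 3, the number of the 8 genes passing moved to 2 (at 0 h, mQ against pQ). Without the replicate term in the TDD model, the number of the 8 genes passing moved to 1 (TDD index, siCTU2 minus siGL2) and 2 (TDD index, mQ minus pQ). At the adjusted threshold, the number of the 8 genes passing moved to 0 (TDD index, mQ minus pQ). With single replicates left out, the number passing ranged from 2 to 5 (at 0 h, mQ against pQ), from 3 to 7 (T arm change over time, siGL2), from 1 to 3 (cycloheximide effect, siGL2), from 1 to 3 (cycloheximide effect, siCTU2), from 1 to 4 (cycloheximide effect, pQ), from 0 to 4 (cycloheximide effect, mQ), from 0 to 1 (T arm change over time, siCTU2 minus siGL2), from 0 to 2 (T arm change over time, mQ minus pQ), from 0 to 2 (cycloheximide effect, mQ minus pQ), from 0 to 1 (TDD index, siCTU2 minus siGL2) and from 1 to 4 (TDD index, mQ minus pQ). The replicate block gave 5 (0 h, siCTU2 against siGL2) and 3 (0 h, mQ against pQ) of the 8 genes. The main edgeR fits did not take the numbers as pairs, whereas the percentages of the 0 h count and the TDD index compare libraries of the same number. Of the correlations of same-numbered libraries, 158 and 150 of 198 in the siRNA and medium experiments were over 0.1, and 1 of 3 in the medium libraries at 0 h. By mean correlation, 33 of 36 siRNA and 31 of 36 medium libraries were closest to those of their own number in other groups. The edgeR fits without a block leave this likeness out. The design names no pairing, although the count columns of each number share a prefix. With the block EIF2AK3 lost its calls at 0 h in the medium experiment (-0.54, edgeR adjusted p = 0.0752) and for cycloheximide in siCTU2 cells (1.28), and ATF5 gained calls for decay in siGL2 and pQ cells (-0.35 and -0.34), as did PPP1R15B for cycloheximide in pQ cells (0.45). With TMM scaling, the decay value changed sign for ATF5 (siGL2 0.28, siCTU2 0.41, pQ 0.41), EIF2AK1 (siGL2 0.080, siCTU2 0.15, pQ 0.21, mQ 0.26, siCTU2 minus siGL2 0.11), EIF2AK4 (siGL2 0.17, siCTU2 0.016, pQ 0.14), EIF2AK2 (siCTU2 0.028, mQ 0.28), ATF4 (siCTU2 minus siGL2 0.018). With TMM scaling, the cycloheximide effect changed sign for ATF5 (siGL2 -0.022, siCTU2 -0.078, pQ -0.10, siCTU2 minus siGL2 -0.073), EIF2AK4 (siGL2 -0.062, siCTU2 -0.081, pQ -0.0047, siCTU2 minus siGL2 -0.040), EIF2AK1 (siCTU2 -0.16, siCTU2 minus siGL2 -0.045), ATF4 (siCTU2 minus siGL2 -0.10), PPP1R15B (siCTU2 minus siGL2 -0.15). With TMM scaling, the TDD difference changed sign for ATF4 (siCTU2 minus siGL2 -0.061, mQ minus pQ 0.026), ATF5 (siCTU2 minus siGL2 -0.049), EIF2AK1 (siCTU2 minus siGL2 -0.019), EIF2AK4 (siCTU2 minus siGL2 -0.0040). With genes stable at both times, the cycloheximide effect changed sign for ATF5 (siGL2 -0.014, pQ -0.32), EIF2AK4 (siGL2 -0.028, pQ -0.24), EIF2AK1 (mQ minus pQ 0.22), EIF2AK2 (mQ minus pQ 0.27). With genes stable at both times, the decay value changed sign for EIF2AK1 (mQ minus pQ -0.26). At 3 h alone, the cycloheximide effect changed sign for EIF2AK3 (pQ 0.20), ATF4 (siCTU2 minus siGL2 -0.11, mQ minus pQ -0.29), PPP1R15B (siCTU2 minus siGL2 -0.22), EIF2AK1 (mQ minus pQ 0.0024), EIF2AK2 (mQ minus pQ 0.17), EIF2AK4 (mQ minus pQ -0.015). At 3 h alone, the decay value changed sign for EIF2AK1 (mQ minus pQ -0.046). At 5 h alone, the cycloheximide effect changed sign for ATF5 (siGL2 -0.011), EIF2AK4 (siGL2 -0.043, pQ -0.074). At 5 h alone, the decay value changed sign for PPP1R15B (mQ minus pQ 0.059), EIF2AK3 (mQ minus pQ 0.018). With the 0 h difference between arms subtracted, the cycloheximide effect changed sign for ATF5 (siCTU2 -0.033, pQ -0.023, siCTU2 minus siGL2 -0.15), EIF2AK1 (pQ 0.028), EIF2AK3 (pQ 0.54, mQ minus pQ -0.41), EIF2AK4 (mQ minus pQ -0.13). In the TCHX arm, the 0 h difference changed sign for ATF5 (mQ against pQ -0.032), EIF2AK3 (mQ against pQ 0.15). With each arm divided by its own 0 h library, the TDD difference changed sign for ATF5 (siCTU2 minus siGL2 -0.080), PPP1R15B (siCTU2 minus siGL2 0.027), ATF4 (mQ minus pQ 0.16), EIF2AK3 (mQ minus pQ -0.15), EIF2AK4 (mQ minus pQ -0.077). With a replicate block, the cycloheximide effect changed sign for ATF5 (pQ -0.0043). Without the libraries with extra genes, the cycloheximide effect changed sign for EIF2AK1 (siCTU2 -0.0055), ATF4 (siCTU2 minus siGL2 -0.11), PPP1R15B (siCTU2 minus siGL2 -0.14). With single replicates left out, these 0 h differences crossed 0 and ranged as follows, ATF4 siCTU2 against siGL2 -0.018 to 0.066 and PPP1R15A siCTU2 against siGL2 -0.015 to 0.30. With single replicates left out, these cycloheximide effects crossed 0 and ranged as follows, EIF2AK4 siGL2 -0.028 to 0.049, ATF5 siGL2 -0.028 to 0.13, ATF5 siCTU2 -0.010 to 0.27, EIF2AK2 siCTU2 -0.24 to 0.14, EIF2AK1 siCTU2 -0.11 to 0.22, EIF2AK3 pQ -0.16 to 0.15, ATF5 pQ -0.059 to 0.065, ATF5 siCTU2 minus siGL2 -0.14 to 0.30, ATF4 siCTU2 minus siGL2 -0.14 to 0.27, PPP1R15B siCTU2 minus siGL2 -0.13 to 0.20, EIF2AK2 siCTU2 minus siGL2 -0.069 to 0.48, ATF4 mQ minus pQ -0.095 to 0.29, EIF2AK3 mQ minus pQ -0.036 to 0.81, EIF2AK1 mQ minus pQ -0.23 to 0.021 and EIF2AK2 mQ minus pQ -0.15 to 0.059. With single replicates left out, these decay values crossed 0 and ranged as follows, ATF5 siCTU2 minus siGL2 -0.075 to 0.19, EIF2AK2 siCTU2 minus siGL2 -0.10 to 0.098 and EIF2AK3 mQ minus pQ -0.21 to 0.11. With single replicates left out, these TDD differences crossed 0 and ranged as follows, ATF5 siCTU2 minus siGL2 -0.073 to 0.17, ATF4 siCTU2 minus siGL2 -0.060 to 0.18, EIF2AK1 siCTU2 minus siGL2 -0.00065 to 0.11, EIF2AK2 siCTU2 minus siGL2 -0.029 to 0.18, ATF4 mQ minus pQ -0.010 to 0.0070, EIF2AK1 mQ minus pQ -0.10 to 0.013 and EIF2AK2 mQ minus pQ -0.062 to 0.0094. In siGL2 cells no library had extra genes, so that alternative gave no value there. The depth limits EIF2AK3 most, with 4 to 14 counts in 5 of the 6 siCTU2 libraries at 5 h, where a few reads move its percentages.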

Other observations

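The levels of the members in the 3 libraries with extra genes and PTPRC are given beside those of replicates 1 and 2 of the same group. For ATF4, mQ T 5 h held 368, 485 and 705 CPM in replicates 1 to 3, pQ TCHX 0 h held 237, 206 and 498 CPM and siCTU2 TCHX 5 h held 198, 329 and 513 CPM. Replicate 3 was the highest in each. PPP1R15A was also highest in replicate 3 of mQ T 5 h (10.7, 14.9 and 54.3 CPM), but not of pQ TCHX 0 h (56.1, 55.9 and 46.7 CPM) or siCTU2 TCHX 5 h (52.6, 51.4 and 47.4 CPM). Replicate 3 stood apart at 5 h beyond these libraries. ATF4 was highest in replicate 3 in 8 of 8 groups at 5 h, for example with 108, 123 and 208 CPM in siGL2 T and 120.4, 103 and 185 CPM in pQ T. PPP1R15A was lowest in replicate 3 in 6 of the 6 such groups without a library with extra genes, with 59.6, 61.01 and 22.5 CPM in siGL2 TCHX, 26.6, 30.3 and 8.81 CPM in siCTU2 T, 49.2, 43.8 and 23.3 CPM in pQ TCHX and 147, 155 and 88.7 CPM in mQ TCHX. What sets replicate 3 apart was not tested. The labels name no shared batch or day for a replicate number, although the count columns of each number share a prefix whose meaning is not given.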
